A study of Mus musculus with 11 samples.

Results

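The NR4A and EGR families are transcription factors whose genes are switched on within minutes to hours when a lymphocyte is activated. The 6 genes examined were the members measured here, Nr4a1 (ENSMUSG00000023034), Nr4a2 (ENSMUSG00000026826), Nr4a3 (ENSMUSG00000028341), Egr1 (ENSMUSG00000038418), Egr2 (ENSMUSG00000037868) and Egr3 (ENSMUSG00000033730). They were taken by gene symbol from 10885 genes in the deposited table, with earlier results of these data known. All 6 were measured in all 11 libraries.

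The study asked how the control region that drives the survival gene BCL2 in B cells shapes the tissue before a lymphoma appears. RNA-seq was made from the unsorted cells of spleen and lymph node (LN) of 6 mice, all injected into the peritoneum with sheep red blood cells, a classical antigen, 3 times over 3 months and examined 1 month after the last injection. The groups were wild type (Wt, mice 1 and 2), transgenic animals in which BCL2 is driven by the enhancer cluster downstream of the heavy chain genes (3'RR-BCL2, called Tg, mice 3 and 4) and knock-in animals carrying BCL2 within the immunoglobulin kappa locus (Igk-BCL2, called KI, mice 5 and 6). Each group held 2 libraries per tissue, except spleen Tg with 1 (mouse 4), whose spread was taken to be that of the rest. Every mouse was immunised, so there was no unimmunised group to compare with. Both BCL2 constructs use immunoglobulin control regions, which act in cells of the B lineage, while the libraries hold all cells of the tissue. Strain, age and sex were not used here. Genotype and anything that went with it, such as colony or day of handling, cannot be told apart.

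Values are the authors' normalised signal, gene read counts divided by 1 factor per library. Depth over the genes of the table was 11128568 to 21067988 reads in LN and 18994455 to 24110325 in spleen. Markers of B and T cells were abundant in every library, with no T cell or B cell marker at 0, and the labelled tissues could be read as lymphoid. Of 7 plasma cell markers, 6 in spleen and 7 in LN were higher in KI than in Wt. Of 9 T cell markers, 6 in spleen and 7 in LN were lower. Over all genes, 16.8% in spleen and 26.0% in LN differed in either direction at a limma adjusted p under 0.05. The share that was lower was 9.21% in spleen and 12.2% in LN. In whole tissue, fewer cells of a type and less RNA per cell cannot be told apart.

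NR4A proteins are orphan nuclear receptors: they have no known hormone and act largely according to how much of them is made. EGR proteins are zinc finger factors that bind GC-rich sites. Antigen receptor signals reach both families through the ERK kinase cascade and through calcium and calcineurin, by way of factors such as SRF, CREB, MEF2 and NFAT already present in the cell. In lymphocytes both families are used as readouts of recent antigen receptor signalling, and both are also known as restraints on activated or self-reactive cells.

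The sequence just before the gene start is shown with matches to short elements marked. RefSeq promoters (build GRCm38.p6) were found for 4 of the 6 members. Each line holds the 250 bases upstream of the start, read 5′ to 3′ on the gene's strand. Capitals mark the core of the cyclic AMP response element (TGACG, or CGTCA on the other strand), which CREB and ATF factors bind, and in Egr2 also the CArG box, which SRF binds.
Nr4a1, chr15:101266596-101266845, plus strand: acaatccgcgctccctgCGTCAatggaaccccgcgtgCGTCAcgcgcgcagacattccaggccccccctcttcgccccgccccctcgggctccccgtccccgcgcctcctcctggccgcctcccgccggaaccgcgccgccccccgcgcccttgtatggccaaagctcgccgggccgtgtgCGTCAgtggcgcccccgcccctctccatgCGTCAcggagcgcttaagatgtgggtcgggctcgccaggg
Nr4a2, chr2:57124004-57124253, minus strand: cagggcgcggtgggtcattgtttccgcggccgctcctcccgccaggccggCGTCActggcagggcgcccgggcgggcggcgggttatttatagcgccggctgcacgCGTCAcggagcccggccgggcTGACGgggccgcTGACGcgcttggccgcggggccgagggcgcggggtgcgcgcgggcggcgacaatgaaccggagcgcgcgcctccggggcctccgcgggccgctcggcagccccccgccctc
Nr4a3, chr4:48045055-48045304, plus strand: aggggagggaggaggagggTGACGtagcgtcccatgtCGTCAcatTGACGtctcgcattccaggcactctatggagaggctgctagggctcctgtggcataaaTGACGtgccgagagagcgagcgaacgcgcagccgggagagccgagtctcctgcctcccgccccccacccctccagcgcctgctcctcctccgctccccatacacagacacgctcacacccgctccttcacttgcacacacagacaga
Egr2, chr10:67537619-67537868, plus strand: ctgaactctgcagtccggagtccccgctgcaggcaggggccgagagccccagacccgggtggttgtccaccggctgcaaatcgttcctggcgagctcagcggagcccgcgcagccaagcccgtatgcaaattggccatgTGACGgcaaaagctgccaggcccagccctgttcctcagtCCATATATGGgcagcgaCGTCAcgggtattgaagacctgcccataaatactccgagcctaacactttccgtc

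Nr4a1, Nr4a2 and Nr4a3 each had 4 places with the TGACG core. Only 0.137% of 32851 promoter windows of this length had 4 or more, and 17.8% had at least 1. In Nr4a1 these began 233, 213, 69 and 40 bases upstream of the start. In Nr4a2 they lay at 200, 144, 123 and 111 bases, and in Nr4a3 at 231, 213, 205 and 147 bases. The whole palindrome TGACGTCA was in none of the 3 windows. Nr4a1 and Nr4a2 also held 1 match each to the EGR site GCGNGGGCG, which 4.7% of windows had. For Egr2, 5 starts are listed. The window shown had 2 TGACG cores, as 3.9% of windows had at least 2, and a CArG box 72 bases upstream, as 1.47% of windows had. The starts differed: the window chr10:67535249-67535498 had neither element. The window chr10:67537316-67537565 had a CArG box and no TGACG core. The remaining windows overlapped the one shown and held the same matches. No match to AP-1 (TGANTCA), to the NR4A site AAAGGTCA, to the ETS site CCGGAAGT or to a MEF2 box was found in these windows, with both strands searched. The NR4A windows were 63.6% to 80.0% G or C, and the windows of all promoters were not matched for this. These are matches of letters, and binding was not measured. Any link between the matches and the signal was not tested.

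Levels per kilobase of exon (lengths from GENCODE M21) allow the genes to be compared with each other. Nr4a1 and Egr1 were the strongest members. In spleen Wt the mean signal per kb was 4017 for Nr4a1, 1567 for Egr1, 566.3 for Egr3, 223.9 for Nr4a2, 183.1 for Egr2 and 96.23 for Nr4a3. In spleen KI the order changed to Egr1 with 442.1, Nr4a1 with 331.3, Egr3 with 301.2, Egr2 with 77.71, Nr4a3 with 23.82 and Nr4a2 with 12.03, where the ranges of the first 3 overlapped. Nr4a1 made up 82.4% to 92.7% of the summed NR4A signal per kb in every library.

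Nr4a1, also called Nur77, is the member most used as a reporter of antigen receptor signalling. Its normalised signal was 16890 and 11300 in spleen Wt (mice 1 and 2), 10920 in spleen Tg (mouse 4), and 1361 and 964.4 in spleen KI (mice 5 and 6). In LN it was 2833 and 4802 in Wt, 5481 and 4963 in Tg (mice 3 and 4), and 1115 and 729.8 in KI. The 4 KI libraries were the lowest of the 11. Group means ran from spleen Wt through spleen Tg, LN Tg, LN Wt and spleen KI to LN KI. Neighbours in this order did not overlap, except that the ranges of spleen KI and LN KI overlapped.

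Nr4a2 (Nurr1) is best known from dopamine neurons and is also induced in activated lymphocytes. Its signal was 1081 and 737 in spleen Wt, 1016 in spleen Tg, and 40.31 and 57.32 in spleen KI. LN libraries gave 137.1 and 506.5 in Wt, 485.4 and 665 in Tg, and 76.83 and 56.31 in KI. Again all KI libraries lay below all others, but mouse 1 minus mouse 2 was -1.88 on the log2 scale in Wt LN, the widest gap between replicates for any member. At its lowest the gene rested on 47 reads (spleen KI mouse 5). Spleen Tg and spleen Wt overlapped, as did LN Tg and LN Wt, and LN KI and spleen KI.

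Nr4a3 (Nor1) is the third member and overlaps in function with Nr4a1 in T cells. Its signal was 689.8 and 462.5 in spleen Wt, 667.6 in spleen Tg, and 148.4 and 136.8 in spleen KI. Lymph node values were 372.5 and 591.8 in Wt, 553.4 and 733.4 in Tg, and 204.1 and 182.7 in KI. The 7 Wt and Tg libraries formed 1 overlapping range over both tissues, and the KI libraries lay below it. Within KI, LN lay above spleen.

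Egr1 is the family member found in the most tissues and an early target of ERK signalling. Its signal was 8720 and 5331 in spleen Wt, 6199 in spleen Tg, and 2379 and 1586 in spleen KI. In LN it was 4378 and 2657 in Wt, 3748 and 3013 in Tg, and 3623 and 1797 in KI. Spleen Wt and Tg stood above everything else, and the 3 LN genotypes overlapped each other. The LN KI range also overlapped that of spleen KI.

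Egr2, needed in T cells for tolerance together with Egr3, had a signal of 707.4 and 537.2 in spleen Wt, 661.3 in spleen Tg, and 301 and 227.1 in spleen KI. LN values were 324.1 and 385.1 in Wt, 532.1 and 429.6 in Tg, and 593.8 and 364.3 in KI. Spleen KI was the lowest group, while LN KI overlapped LN Wt and LN Tg. Spleen Wt and Tg overlapped each other and lay above LN Tg, the next group by mean, although LN KI mouse 5 fell within their range.

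Egr3 had a signal of 2904 and 2086 in spleen Wt, 1506 in spleen Tg, and 1210 and 1444 in spleen KI. In LN it was 1297 and 1277 in Wt, 1538 and 831.3 in Tg, and 1040 and 751.6 in KI. Spleen Wt alone stood apart at the top. From spleen KI downwards each group overlapped the next by mean: spleen KI and LN Wt, LN Wt and LN Tg, and LN Tg and LN KI.

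**Figure D1:**
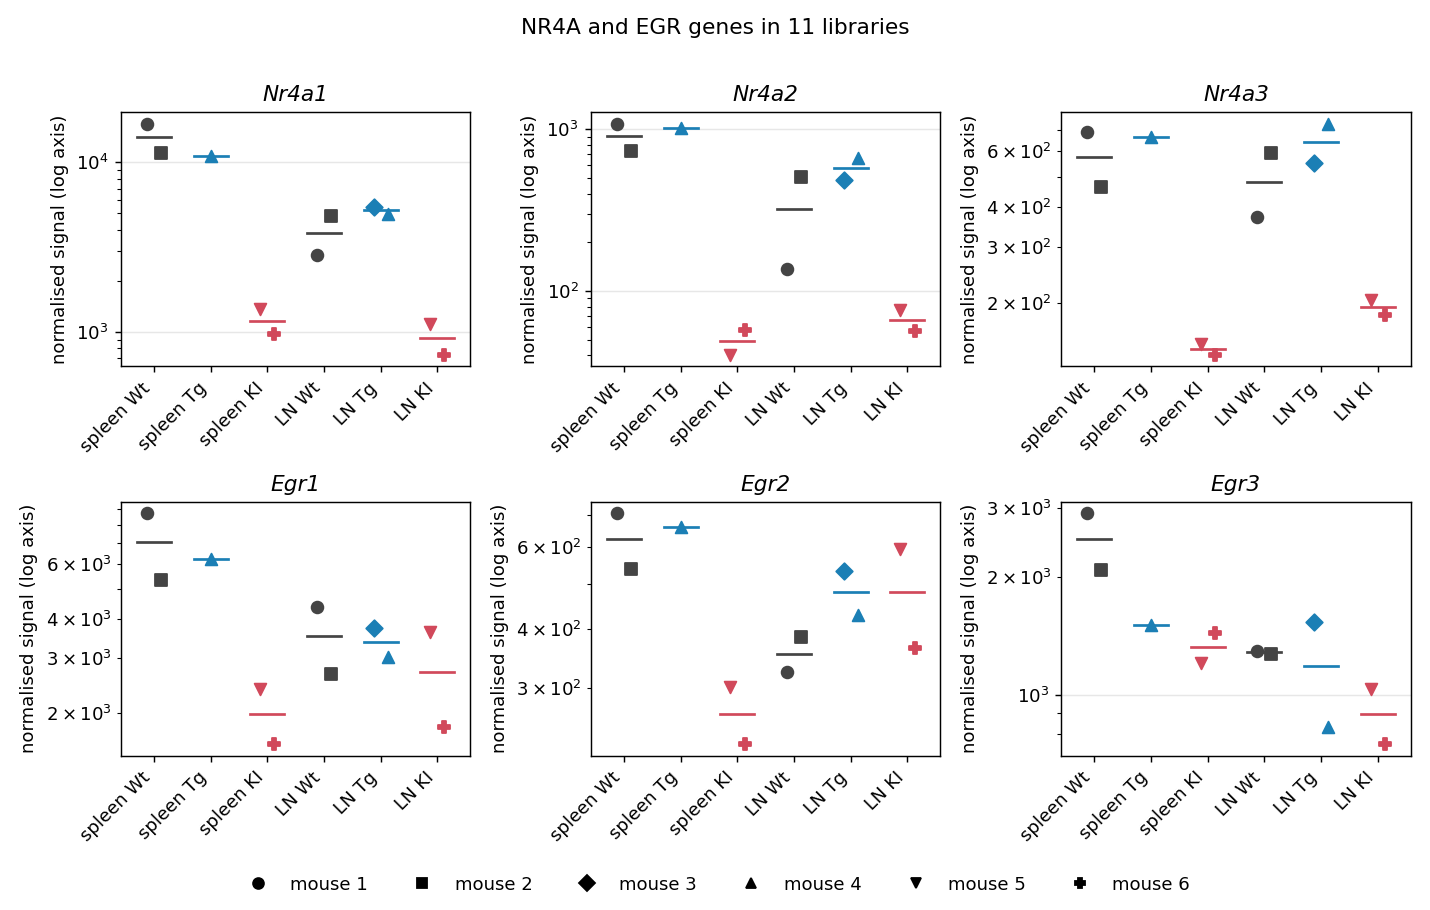
Normalised signal of each gene in each library (log axis), by tissue and genotype; symbols mark the mouse and bars the group mean. The KI libraries are the lowest in both tissues for Nr4a1, Nr4a2 and Nr4a3, while for Egr1 and Egr2 the LN KI range overlaps those of LN Wt and LN Tg.

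In spleen, KI mice had less RNA than Wt of 5 of the 6 genes, all 3 NR4A genes with Egr1 and Egr2. Tests were limma fits on log2(signal + 1) across all genes and libraries, with p adjusted by the Benjamini-Hochberg method, and a gene was called at an adjusted p under 0.05. In this comparison 16.8% of all genes were called and 9.21% were called lower. All 6 genes had groups that did not overlap, with KI lower, as did 31.9% of all genes. The median log2 difference was -1.90 over the members against 0.01 over all genes.

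Nr4a2 differed most, at -4.19 ± 0.59 (SE, 2 against 2 mice), an 18.2-fold lower level with an adjusted p of 0.00678 in limma. Nr4a1 was 12.1-fold lower (log2 difference -3.59 ± 0.35, limma adjusted p 0.0016) and Nr4a3 3.94-fold lower (-1.98 ± 0.25, limma adjusted p 0.00124). The calls for Nr4a1 and Nr4a3 held without any 1 of the 4 libraries. That for Nr4a2 was lost without KI mouse 5 (-3.94, limma adjusted p 0.051).

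Among the EGR genes, Egr2 was 2.35-fold lower (-1.23 ± 0.25, limma adjusted p 0.0102). It passed without Wt mouse 2 or KI mouse 5 but not without Wt mouse 1 (-1.04, limma adjusted p 0.08) or KI mouse 6 (-1.03, limma adjusted p 0.0803). Egr1 was 3.51-fold lower (-1.81 ± 0.46) and only just passed, with a limma adjusted p of 0.049. Leaving out any 1 of the 4 spleen libraries, Wt mouse 1 or 2 or KI mouse 5 or 6, ended that call, with differences of -2.17 to -1.46 and limma adjusted p of 0.0865 to 0.199. The Egr1 call was also lost with quantile normalisation (limma adjusted p 0.0512) and in a fit to spleen alone (limma adjusted p 0.0763). Egr3 differed by -0.90 ± 0.31 and did not pass (limma adjusted p 0.0898), but did in the fit to spleen alone (limma adjusted p 0.0221). On the recovered reads of the 5 spleen libraries, a test added after the data had been seen, all 6 genes passed in both count tools. Egr1 then had an adjusted p of 0.0301 in edgeR and 0.000709 in DESeq2, and Egr3 of 0.0426 and 1.6e-05. Over all genes edgeR called 1761 and DESeq2 2558 in this comparison, against 1833 in limma.

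In LN, 2 of the 6 genes were lower in KI than in Wt, both of the NR4A family. Here 26.0% of all genes were called, 12.2% lower. Nr4a1 was 4.09-fold lower (-2.03 ± 0.35, limma adjusted p 0.00649) and Nr4a3 2.42-fold lower (-1.28 ± 0.25, limma adjusted p 0.00483), and both passed without any 1 of the 4 LN libraries. The Nr4a3 call was lost when both tissues of mouse 6 were left out (-1.20, limma adjusted p 0.0533). Nr4a2 differed by a similar -1.99 ± 0.59 but missed the threshold with a limma adjusted p of 0.0519. Without LN Wt mouse 1, the lower of the 2 Wt values, the difference was -2.93 with a limma adjusted p of 0.00069, and without LN Wt mouse 2 it was -1.05 with a limma adjusted p of 0.0614. On the recovered reads of the 6 LN libraries Nr4a2 passed in edgeR (adjusted p 0.0416) and in DESeq2 (adjusted p 0.0168). Over all genes these tools called 2059 and 2634, against 2833 in limma.

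The EGR genes did not pass in LN. Egr1 differed by -0.42 ± 0.46 (limma adjusted p 0.57), and by 0.09 without KI mouse 6. Egr2 differed by 0.40 ± 0.25 (limma adjusted p 0.279), the only member with a higher mean in KI, and Egr3 by -0.54 ± 0.31 (limma adjusted p 0.248). The 3 NR4A genes and Egr3 had groups that did not overlap, with KI lower, as did 34.8% of all genes. Removing immunoglobulin and haemoglobin genes before scaling raised the median difference of all genes in this comparison from -0.02 to 0.11, and kept the direction of each of the 6 genes. Nr4a2 then passed (limma adjusted p 0.0412).

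**Figure D2:**
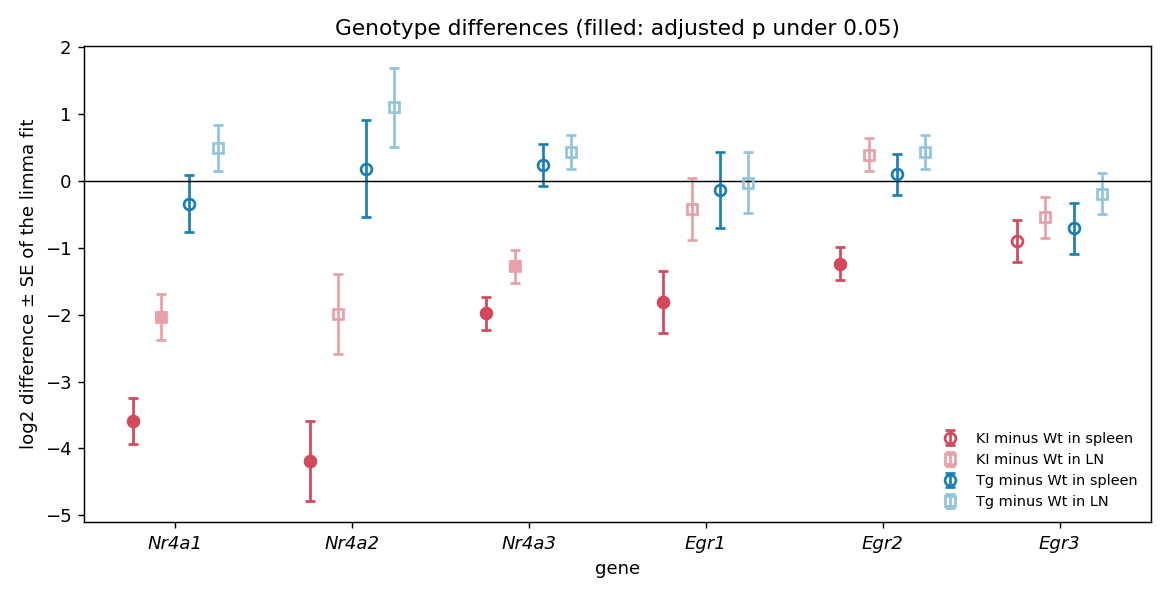
Log2 difference from Wt of each gene with the SE of the limma fit, for KI and Tg in each tissue; filled symbols have an adjusted p under 0.05. The filled symbols are all KI differences below 0, from -4.19 for Nr4a2 to -1.23 for Egr2 in spleen, and no Tg difference is filled.

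The T cell markers were lower in KI than in Wt in both tissues. Their summed signal was 33990 to 35890 in spleen Wt and 16890 to 18460 in spleen KI, and 65510 to 69430 in LN Wt and 29990 to 39620 in LN KI, with all 9 above 0 in every library. The median difference of the 9 was -0.96 in spleen and -0.91 in LN, and 4 rather than 7 were called lower in LN without KI mouse 5. Summed macrophage markers ranged from 1781 to 2685 in LN Wt and from 1100 to 1115 in LN KI, with 6 of 9 called lower, and in spleen none of the 9 was called. Summed B cell markers were higher in KI, at 124400 to 137500 in spleen KI against 99530 to 105900 in spleen Wt and 80040 to 100200 in LN KI against 62490 to 70380 in LN Wt. The 8 did not move as one. In spleen 3 were higher, among them Cd79b and Cd22, and the complement receptor gene Cr2 was lower (-1.39 ± 0.16, limma adjusted p 0.000664). In LN 4 were higher, among them Cd79b, Cd22 and Ms4a1, while Cr2 (-0.76 ± 0.16, limma adjusted p 0.00673) and the IgE receptor gene Fcer2a (-1.22 ± 0.17, limma adjusted p 0.000633) were lower. With 1 library left out, whichever it was, 1 to 2 were higher in spleen and 3 to 5 in LN. Plasma cell markers rose in both tissues, from 5242 to 6676 in LN Wt to 140300 to 145500 in LN KI, and from 16160 to 16260 in spleen Wt to 72870 to 121300 in spleen KI. The part of these 4 cell types in the NR4A and EGR differences was not tested.

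The Tg mice gave no call for any of the 6 genes in either tissue. In LN, limma called 0 of all genes in Tg against Wt, with 532 (4.89%) at an unadjusted p under 0.05, while edgeR called 0 and DESeq2 29 and neither tool called any of the 6. The limma differences in LN were 0.50 ± 0.35 for Nr4a1, 1.11 ± 0.59 for Nr4a2 and 0.44 ± 0.25 for Nr4a3. Those of the EGR genes were -0.02 ± 0.46 for Egr1, 0.44 ± 0.25 for Egr2 and -0.19 ± 0.31 for Egr3. Nr4a1 and Egr2 had LN Tg libraries both above LN Wt, as did 12.7% of all genes. The sign for Egr1 changed without LN Wt mouse 1 (0.34) or without LN Tg mouse 4 (0.14), as well as with quantile normalisation (0.02) or without immunoglobulin and haemoglobin genes (0.02). That for Egr3 changed without LN Tg mouse 4 (0.26).

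In spleen, with 1 Tg library, limma called 0 of all genes and 164 (1.51%) had an unadjusted p under 0.05. The differences were -0.34 ± 0.42 for Nr4a1, 0.19 ± 0.73 for Nr4a2, 0.24 ± 0.31 for Nr4a3, -0.14 ± 0.57 for Egr1, 0.10 ± 0.31 for Egr2 and -0.71 ± 0.38 for Egr3. Only for Nr4a1 and Egr3 did the Tg library fall outside the Wt range, below it, as it did for 32.1% of all genes. On the recovered spleen reads edgeR called 0 of all genes and DESeq2 35, none of the 6 among them. With SEs this wide these data leave room for changes of either sign.

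KI and Tg could also be compared directly, sharing the KI libraries with the comparisons above. In LN, where 26.7% of all genes were called, the 3 NR4A genes were lower in KI. The differences were -2.53 ± 0.35 for Nr4a1 (limma adjusted p 0.003), -3.09 ± 0.59 for Nr4a2 (limma adjusted p 0.0114) and -1.72 ± 0.25 for Nr4a3 (limma adjusted p 0.00114). The Nr4a2 call was lost without Tg mouse 4 (-2.86), KI mouse 5 (-3.31) or KI mouse 6 (-2.87), with limma adjusted p of 0.0642, 0.0618 and 0.075. Egr1 (-0.40 ± 0.46), Egr2 (-0.04 ± 0.25) and Egr3 (-0.35 ± 0.31) did not pass, though Egr3 did without Tg mouse 4 (-0.80, limma adjusted p 0.0497).

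In spleen 7.71% of all genes were called between KI and Tg, and 4 of the 6 members were, all lower in KI. Nr4a1 differed by -3.25 ± 0.42 (limma adjusted p 0.0095), Nr4a2 by -4.37 ± 0.73 (limma adjusted p 0.02), Nr4a3 by -2.22 ± 0.31 (limma adjusted p 0.00415) and Egr2 by -1.34 ± 0.31 (limma adjusted p 0.0296). The calls for Nr4a2 and Egr2 were lost without KI mouse 5 (-4.12 and -1.54, limma adjusted p 0.0875 and 0.0574) and without KI mouse 6 (-4.62 and -1.13, limma adjusted p 0.072 and 0.134). Egr1 differed by -1.67 ± 0.57 (limma adjusted p 0.133) and Egr3 by -0.19 ± 0.38 (limma adjusted p 0.801). On the recovered spleen reads Egr2 missed the threshold in edgeR (adjusted p 0.0535), and Egr1 passed in DESeq2 (adjusted p 0.0262) but not in edgeR (adjusted p 0.0668).

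Each tissue pair of mice 1, 2, 4, 5 and 6 came from the same animal. The main fit compared group means without using this pairing, and its values are given unless a paired fit is named. In Wt, Nr4a1 was 3.75-fold lower in LN (-1.91 ± 0.35, limma adjusted p 0.0191), the only call of the 6, where 9.38% of all genes were called. It was lost without spleen Wt mouse 1 (-1.62, limma adjusted p 0.0955), without LN Wt mouse 1 (-1.52, limma adjusted p 0.0737), without both tissues of mouse 1 (-1.23, limma adjusted p 0.178) and with mouse as a fixed term in a paired fit with 2 residual degrees of freedom (limma adjusted p 0.0904). The other differences were -1.76 ± 0.59 for Nr4a2, -0.27 ± 0.25 for Nr4a3, -1.0 ± 0.46 for Egr1, -0.80 ± 0.25 for Egr2 and -0.94 ± 0.31 for Egr3. Nr4a2 passed without LN Wt mouse 2 (-2.69, limma adjusted p 0.00253), and without LN Wt mouse 1 it differed by -0.82 (limma adjusted p 0.286).

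Cell type markers also differed between the tissues. In Wt, 8 of 9 T cell markers were higher in LN than in spleen, whereas 6 of 8 B cell, 8 of 9 macrophage, 4 of 5 NK cell and 4 of 7 plasma cell markers were lower. Leaving out 1 library gave 4 to 6 T cell markers higher and 1 to 5 B cell, 5 to 8 macrophage, 0 to 3 NK cell and 4 to 5 plasma cell markers lower. In KI, 7 of 9 T cell markers were higher in LN, 5 of 8 B cell and 8 of 9 macrophage markers were lower, and no plasma cell marker was called by limma. Their part in the tissue differences of the 6 genes was not tested.

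For the EGR genes the paired fit gave the smaller p. With mouse as a fixed term the lower LN level in Wt passed for Egr1, Egr2 and Egr3. The limma adjusted p was 0.000198, 0.00828 and 0.0196 in this order, against 0.269, 0.0769 and 0.115 without the mouse term. Over all genes the paired fit called 1577, against 1021 in the main fit. It had 2 residual degrees of freedom, and the Egr1 differences of Wt mice 1 and 2 were close, at -0.994 and -1.004. The level of Egr1 followed the mouse: mouse 1 exceeded mouse 2 by 0.71 in spleen and 0.72 in LN on the log2 scale, and mouse 5 exceeded mouse 6 by 0.59 and 1.01. For Nr4a1 the 2 Wt mice changed order between tissues, with mouse 1 higher by 0.58 in spleen and lower by 0.76 in LN.

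In KI no member passed between tissues, where 9.27% of all genes did. Egr2 was 0.83 ± 0.25 higher in LN on the log2 scale (limma adjusted p 0.0699), with a limma adjusted p of 0.00719 in the paired fit and of 0.0245 without LN KI mouse 6 (1.18). Egr1 differed by 0.39 ± 0.46 (limma adjusted p 0.74, and 0.055 in the paired fit), and by -0.11 without LN KI mouse 5. Over all genes the paired fit called 1472 here, against 1009 in the main fit. The NR4A genes differed by -0.34 ± 0.35 for Nr4a1, 0.44 ± 0.59 for Nr4a2 and 0.44 ± 0.25 for Nr4a3, and Egr3 by -0.58 ± 0.31.

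Within single mice the tissue difference of the EGR genes took opposite signs in Wt and KI for Egr1 and Egr2. For Egr1, LN minus spleen was -0.99 and -1.0 in Wt mice 1 and 2, -1.04 in Tg mouse 4, and 0.61 and 0.18 in KI mice 5 and 6. For Egr2 it was -1.12 and -0.48 in Wt, -0.62 in Tg, and 0.98 and 0.68 in KI. Egr3 was lower in LN in all 5 mice, by -1.16 to -0.22. Nr4a1 was lower in LN in all 5 as well, by -2.58 and -1.24 in Wt, -1.14 in Tg, and -0.29 and -0.40 in KI.

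**Figure D3:**
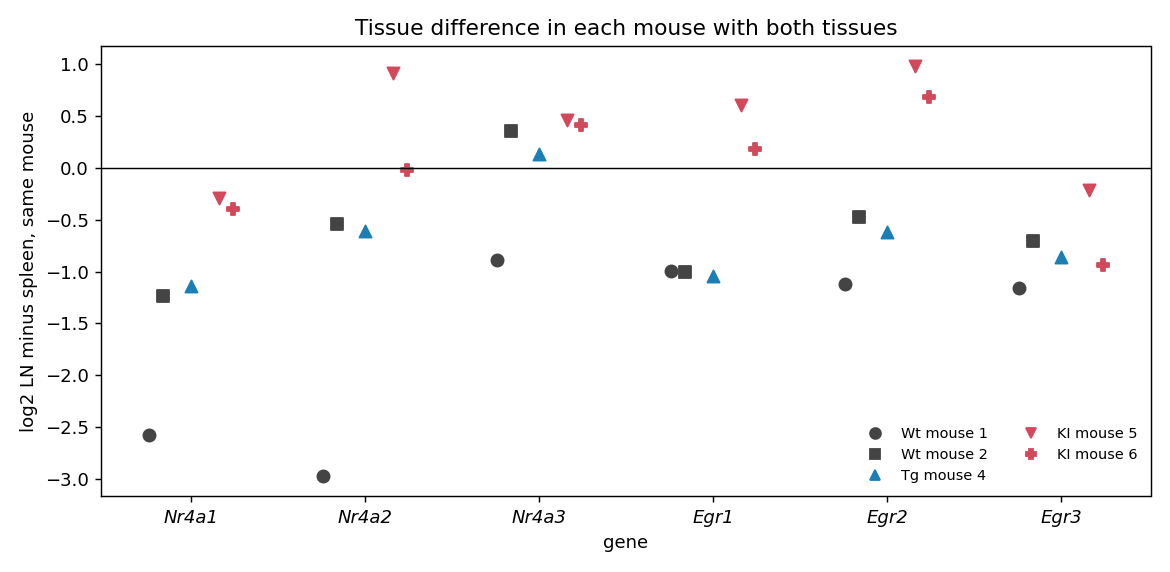
Log2 signal in LN minus spleen of the same mouse, for the 5 mice with both tissues; values below 0 are lower in LN. For Egr1 and Egr2 the Wt and Tg mice lie below 0 and the KI mice above it, while for Nr4a1 and Egr3 all 5 mice lie below 0.

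The difference between the KI effects in the 2 tissues was tested as an interaction, which called 0.955% of all genes and none of the 6. Its size, the KI effect in LN minus that in spleen, was 1.63 ± 0.35 for Egr2 (limma adjusted p 0.0671), 1.56 ± 0.49 for Nr4a1 (limma adjusted p 0.206) and 1.39 ± 0.65 for Egr1 (limma adjusted p 0.413). With mouse as a fixed term in the paired fit it passed for Egr1 (limma adjusted p 0.00126) and Egr2 (limma adjusted p 0.00328). Over all genes that fit called 596, against 104 in the main fit. Egr2 also passed without LN KI mouse 6 (1.98, limma adjusted p 0.0353). Nr4a2 (2.20 ± 0.84, limma adjusted p 0.297) passed without LN Wt mouse 2 (3.14, limma adjusted p 0.0144) but was 1.3 without LN Wt mouse 1 (limma adjusted p 0.27). Nr4a3 (0.70 ± 0.36) and Egr3 (0.36 ± 0.44) did not pass. For the Tg effect the same interaction called 0% of all genes, hence none of the 6. In the KI interaction 4 of 7 plasma cell markers were higher and 5 of 9 macrophage markers lower, and their part in it was not tested.

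The balance between the families can be read as the ratio of their summed signal per kb. On the log2 scale this NR4A to EGR ratio was 0.89 and 0.94 in spleen Wt, 0.86 in spleen Tg, and -1.08 and -1.26 in spleen KI. LN libraries gave -0.60 and 0.68 in Wt, 0.40 and 0.79 in Tg, and -1.72 and -1.43 in KI. NR4A signal exceeded EGR signal in 6 of the 7 Wt and Tg libraries, the exception being LN Wt mouse 1, and EGR signal exceeded NR4A signal in all 4 KI libraries.

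The members varied together across the 11 libraries to different degrees. Pearson's r of log2 signal was 0.96 between Nr4a1 and Nr4a2 and 0.96 between Nr4a2 and Nr4a3. Within the EGR family it was 0.83 between Egr1 and Egr2, 0.70 between Egr1 and Egr3, and 0.42 between Egr2 and Egr3. Between families it ran from 0.37 for Nr4a3 and Egr3 to 0.85 for Nr4a1 and Egr1. These are descriptions over libraries that share mice, tissue and genotype, and the separation of KI from the rest enters each of them.

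The genes most like each member were sought among 1702 genes whose log2 signal had an SD of at least 0.5 over the libraries. For Nr4a1 they were Bhlhe40, a repressor induced on activation (r = 0.99), Atf3, a stress-induced AP-1 relative (r = 0.99), and Gla, a lysosomal galactosidase (r = 0.98). For Nr4a2 they were the small MAF factor Maff, the clock gene Per1 and Ifrd1, each with r = 0.99. For Nr4a3 they were Tnfaip3, which encodes the NF-kB inhibitor A20 (r = 0.98), Ets2 (r = 0.97) and the antiproliferative gene Tob1 (r = 0.97). The signal of Tnfaip3 was 16230 to 29250 in the Wt and Tg libraries other than LN Wt mouse 1, where it was 9464, and 1289 to 2028 in KI.

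For the EGR genes the closest matches were looser. They were Ciart, Mir22hg and Pmaip1 for Egr1 (r = 0.90, 0.88 and 0.87), Rasd1, Fam83d and Mir5107 for Egr2 (r = 0.92, 0.90 and 0.88), and Il5ra, Prxl2a and Gdf15 for Egr3 (r = 0.90, 0.89 and 0.88). Ciart is a circadian repressor, Pmaip1 encodes the death protein NOXA and Il5ra is the interleukin 5 receptor. Gdf15 was near the floor in LN, with a signal of 2.299 to 8.492, so its match to Egr3 rests there on few reads. Rasd1 was picked for its likeness to Egr2 in these libraries, so sharing its pattern is no separate result. Its signal was low throughout, at 19.72 and 10.75 in spleen KI against 135.5 and 99.11 in spleen Wt. LN KI (82.32 and 44.82) overlapped LN Wt (67.73 and 44.85).

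Among 4 genes for proteins that work with the 2 families, 1 (25.0%) was called lower in KI in each tissue. Over all genes the share called lower was 9.21% in spleen and 12.2% in LN. NAB1 and NAB2 bind EGR proteins and repress them, and RXR receptors pair with Nr4a1 and Nr4a2. Of 4 measured, Nab1 was lower in spleen KI than in Wt (-0.56 ± 0.12, limma adjusted p 0.0113). It did not pass in edgeR on the recovered reads (adjusted p 0.067), and lost the call when Wt mouse 1, Wt mouse 2 or KI mouse 6 was dropped, with differences of -0.74 to -0.39 over the libraries left out. In lymph node, Rxra alone was lower (-1.65 ± 0.14, limma adjusted p 4.51e-05), and it was named after its value was seen. Nab2 differed by -0.11 ± 0.28 in spleen and -0.64 ± 0.28 in LN. The median of the 4 was -0.21 in spleen and -0.46 in LN, against 0.01 and -0.02 over all genes.

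Of 19 transcription factors that act upstream, 2 (10.5%) were called lower in spleen KI, a share near the 9.21% of all genes. They were Srf (-0.46 ± 0.09, limma adjusted p 0.0093) and the cyclic AMP modulator Crem (-0.92 ± 0.23, limma adjusted p 0.023). Srf lost its call without spleen Wt mouse 2 or KI mouse 5, and Crem without any 1 of the 4 libraries. In LN 4 (21.1%, against 12.2% of all genes) were lower and 1 higher, falling to 1 lower without Wt mouse 2 or KI mouse 6 and to 2 without KI mouse 5. The higher one was Mef2c (0.52 ± 0.17, limma adjusted p 0.041), named after its value was seen, and none was higher without Wt mouse 1 or KI mouse 5. Srf was lower again (-0.46 ± 0.09, limma adjusted p 0.00484) and Crem did not pass (-0.14 ± 0.23). The median difference of the 19 was -0.21 in spleen and -0.19 in LN.

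Of 24 genes of ERK and calcium signalling, 3 (12.5%, against 9.21% of all genes) were lower in spleen KI and none higher. Among them were Prkcq, the protein kinase C theta of T cells (-0.93 ± 0.15, limma adjusted p 0.00294), and Plcg1, the phospholipase C of T cells (-0.57 ± 0.13, limma adjusted p 0.0134). In LN 5 (20.8%, against 12.2% of all genes) were lower and 1 higher: Prkcq and Plcg1 were again among the lower, and the gene that was higher was Plcg2, the phospholipase C of B cells (0.65 ± 0.13, limma adjusted p 0.00424), named after its value was seen. In spleen the Prkcq call held without any 1 library, and that for Plcg1 was lost without each of the 4. In LN 3 were lower without KI mouse 5 or KI mouse 6. The median of the 24 was -0.08 in spleen and -0.12 in LN.

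Other immediate early genes were lower together with the members. The gene lists were chosen with earlier results of these data known, so their shares are no separate support. Atf3 and Maff, picked above for their likeness to Nr4a1 and Nr4a2, belong to this list. Of 23 measured, 17 (73.9%, against 9.21% of all genes) were lower in spleen KI than in Wt and none higher, with a median of -1.90. Leaving out Wt mouse 1 or KI mouse 5 gave 8 called lower, and leaving out Wt mouse 2 or KI mouse 6 gave 10. The 4 with the smallest p were Rgs1, a brake on chemokine receptors (-3.89 ± 0.21, limma adjusted p 4.01e-05), Myc (-2.17 ± 0.15, limma adjusted p 5.36e-05), Atf3 (-6.24 ± 0.51, limma adjusted p 0.000889) and Ier3 (-2.85 ± 0.37, limma adjusted p 0.0011). Their calls held without any 1 of the 4 libraries.

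In LN 10 of the 23 (43.5%, against 12.2% of all genes) were lower and 1, the stress gene Gadd45b, was higher (1.07 ± 0.20, limma adjusted p 0.00471). Leaving out KI mouse 5 gave 5 lower and leaving out KI mouse 6 gave 3. Rgs1 (-1.67 ± 0.21), Myc (-1.42 ± 0.15) and Atf3 (-3.57 ± 0.51) were again lower, with limma adjusted p of 5e-04, 0.000125 and 0.00321. Ier3 was not (0.32 ± 0.37, limma adjusted p 0.573). The summed signal of the 23 genes was 216500 to 263900 in spleen Wt and 93940 to 96150 in spleen KI, and 131200 to 186600 in LN Wt and 83270 to 110000 in LN KI.

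Later activation genes, a list also chosen with earlier results known, were lower in spleen as well. Of 18, 11 (61.1%, against 9.21% of all genes) were lower in spleen KI and none higher, with a median of -1.0, and 4 to 6 were lower without 1 library (4 without Wt mouse 1, 5 without KI mouse 6, 6 without Wt mouse 2 or KI mouse 5). The interleukin 3 regulated factor Nfil3 differed by -2.45 ± 0.32, and the chemokine genes Ccl4 and Ccl3 by -2.70 ± 0.39 and -2.26 ± 0.38 (limma adjusted p 0.00188, 0.0019 and 0.0044). The NF-kB regulator Nfkbid differed by -1.20 ± 0.21 (limma adjusted p 0.00673) and lost its call without Wt mouse 1 or KI mouse 5. Lymph node had 4 (22.2%, against 12.2% of all genes) lower and 2 higher, the latter being the adhesion receptor Cd44 and the interleukin 2 receptor chain Il2ra, named after their values were seen. Without Wt mouse 1, KI mouse 5 or KI mouse 6 none of the 18 was higher, and 1 was without Wt mouse 2. The number lower was then 6, 2, 2 and 1. Nfil3 (-1.14 ± 0.32, limma adjusted p 0.029) and Nfkbid (-0.92 ± 0.21, limma adjusted p 0.0113) passed there, but neither did without Wt mouse 2 or without KI mouse 6, and Nfil3 also not without KI mouse 5. Ccl4 (0.42 ± 0.39) and Ccl3 (-0.57 ± 0.38) did not pass in LN.

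EGR and NR4A factors are also known for driving genes of anergy and exhaustion, the states in which lymphocytes stop responding. Of 15 such genes 1 (6.67%, against 9.21% of all genes) was lower in spleen KI, the checkpoint receptor Ctla4 (-2.73 ± 0.60, limma adjusted p 0.0339), a call lost without any 1 of the 4 libraries. In LN 3 were higher (Lag3, Tox2 and Ndrg1) and 2 lower (the diacylglycerol kinases Dgka and Dgkz), named after their values were seen, so that 33.3% were called where 26.0% of all genes were. Higher calls numbered 1 without Wt mouse 1 or KI mouse 5 and 2 without KI mouse 6. Ctla4 did not pass there (-0.77 ± 0.60, limma adjusted p 0.41) but did without LN Wt mouse 1 (-1.73). The median of the 15 was -0.26 in spleen and -0.07 in LN.

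Heat shock genes respond to stress of the cell. None of 10 was called in either KI comparison with Wt by limma, nor by edgeR, while DESeq2 called Hspe1 lower in spleen (adjusted p 0.0497). Hsp90aa1 differed by -0.77 ± 0.55 in spleen and -0.16 ± 0.55 in LN, and Hspe1 by -0.42 ± 0.39 and -0.23 ± 0.39. Their summed signal was highest in the 2 Tg libraries of mouse 4, at 247800 and 234800, and 66490 to 135300 in the other 9.

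**Figure D4:**
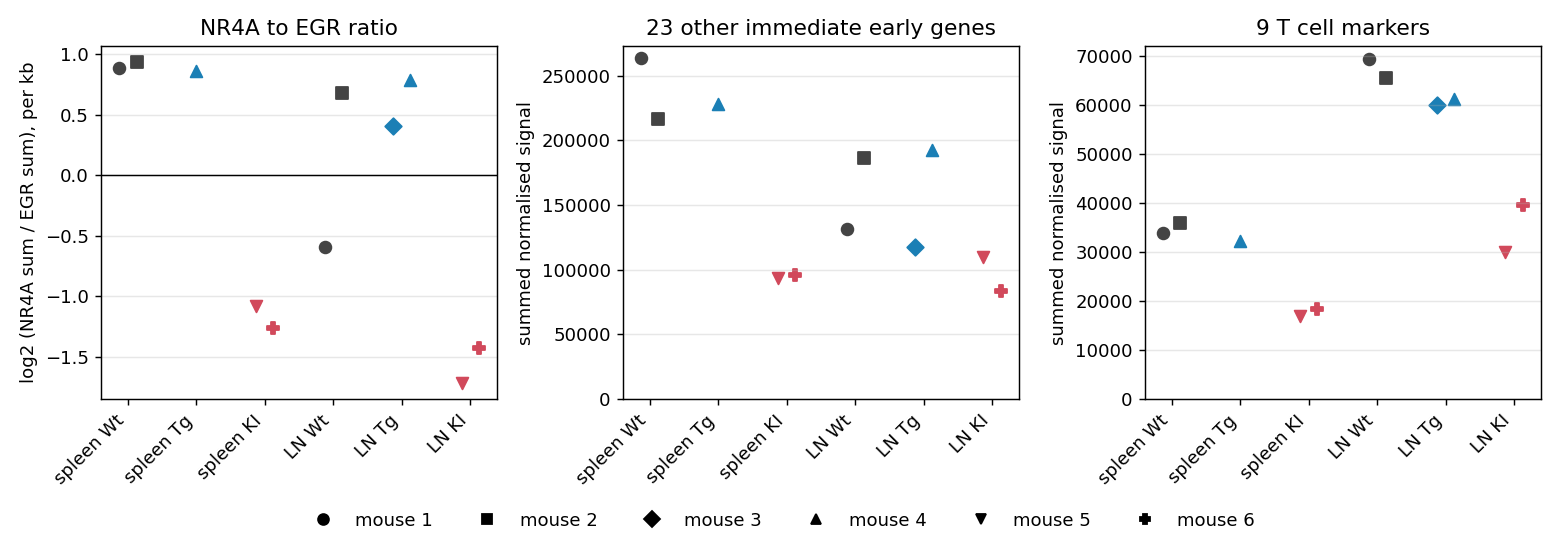
Log2 ratio of summed NR4A to summed EGR signal per kb (left), summed signal of 23 other immediate early genes (middle) and of 9 T cell markers (right), by group; symbols mark the mouse. The ratio lies below 0 in the 4 KI libraries, from -1.72 to -1.08, and both sums are lower in KI than in Wt of the same tissue.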

How the data were processed

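RNA-seq of 11 libraries, 6 of LN and 5 of spleen, was read from 1 deposited table of 10885 genes. Per the submitters' processing notes the authors used FastQC 0.11.5, STAR 2.5, featureCounts, Subread 1.4.6 and DESeq2 1.26.0 with build GRCm39, with no role or order. For annotation and strand setting, which are not given in the sources used here, nothing was assumed, and reads of overlapping genes could not be told apart. The deposited values are a normalised signal, which the authors obtained, as read from the values, by dividing read counts by 1 factor per library: divided by the smallest step of its library, every value came to a whole read number (100%, tolerance 0.05). The least expressed gene peaked at 109.3. Depth limits the lowest values, such as those of Nr4a2 in KI.

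Group means of the 6 groups were fitted to log2(signal + 1) with limma 3.58.1 (R 4.3.3; trend and robust, 5 residual degrees of freedom, Benjamini-Hochberg over all genes, called under 0.05). A fold difference is 2 to the power of that difference and understates changes of low genes. Errors are SEs of the fit. In the main fit, p-values measure the spread between mice of a group, pooled over groups, to which spleen Tg with 1 library adds nothing. With mouse as a fixed term they measure the spread of the tissue difference between mice.

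The labels' subject numbers pair the 2 tissues of a mouse. The replicate difference correlated over genes between tissues at 0.403 in Wt and 0.9 in KI. Mouse was a random term (consensus correlation 0.0168) or a fixed term in alternatives. Others were pseudocounts of 0.1 and 5, a mean signal of at least 200 (8744 genes), removal of 196 immunoglobulin and haemoglobin genes, quantile normalisation, no trend, a fit to 1 tissue, edgeR 4.0.16 and DESeq2 1.42.0 on the recovered reads of LN and, chosen after seeing the data, of spleen, and omission of single libraries or mice.

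The members and gene lists were chosen with earlier results of these data known. The named genes were the 6 members; of each list up to 4 called genes with the smallest p in KI against Wt in spleen, or 2 uncalled ones where none was called; and the 3 genes with the highest Pearson's r to each member. Of the listed genes Egr4, Fosl1, Rnf128 and Xcr1 and 8 stromal genes were not analysed here. Some listed genes are counted in their lists but not reported here by name. Dendritic cell, NK cell, neutrophil, erythroid and endothelial lists gave 0 or 1 called genes in KI against Wt, except endothelial in LN with 1 higher and 1 lower. Few calls do not show like levels. Summed NK cell markers were 1322 to 1958 in spleen KI against 2339 to 2994 in spleen Wt. In LN they were 986.7 to 1477 in KI against 1716 to 2152 in Wt. Summed neutrophil markers spread from 5145 to 40050 within spleen Wt, and erythroid markers from 2584 to 24560 within spleen KI. Tests were tried on simulated data.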

Additional observations from a re-analysis of the deposited data

Results flagged for a closer look

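The tissue difference of Egr1 and Egr2 had 1 sign in both Wt mice and the other in both KI mice. The KI effect in LN minus that in spleen was 1.39 ± 0.65 for Egr1 and 1.63 ± 0.35 for Egr2 on the log2 scale. The limma test of this difference did not pass for either gene (adjusted p 0.413 and 0.0671). The paired fit with mouse as a fixed term had 2 residual degrees of freedom, and both passed (limma adjusted p 0.00126 and 0.00328). Over all genes that fit called 596, against 104 in the main fit. Both genes were flagged for these signs, and the paired fit reads the same differences, so its result is no separate support. Wt and KI each had 2 mice with both tissues.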

How the results depend on the processing

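Of 876 differences of the 6 genes under alternatives, 785 kept their direction and side of the threshold, 35 lost a call, 25 gained one and 31 changed sign. The number of members called was 5 for KI minus Wt in spleen and 3 to 4 when single libraries or mice were left out, 2 and 1 to 3 in LN, 3 and 2 to 3 for KI minus Tg in LN, and 4 and 2 to 3 in spleen. With mouse as a fixed replicate block it moved from 1 to 3 for LN minus spleen in Wt, from 0 to 1 in KI, and from 0 to 2 for the KI interaction. Leaving out libraries or mice gave 0 to 2, 0 to 1 and 0 to 1 for these. As a random term the block changed no call of the 6. Over all genes the fixed block moved the number called from 1021 to 1577 for LN minus spleen in Wt, from 104 to 596 for the KI interaction and from 0 to 5 for the Tg interaction.

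The signs that changed belonged to differences that did not pass. Without single libraries or mice, KI minus Wt in LN ranged from -0.92 to 0.087 for Egr1, -0.55 to 0.27 for Crem, -0.021 to 0.66 for Ier3, -1.73 to 0.18 for Ctla4, -0.48 to 0.15 for Hsp90aa1 and -0.46 to 0.0029 for Hspe1. Tg minus Wt ranged from -0.38 to 0.34 for Egr1 (0.14 without mouse 4) and -0.63 to 0.26 for Egr3 in LN. In spleen it ranged from -0.089 to 0.46 for Nr4a2, -0.047 to 0.53 for Nr4a3, -0.49 to 0.22 for Egr1 and -0.097 to 0.30 for Egr2. KI minus Tg in LN ranged from -0.90 to 0.11 for Egr1, -0.39 to 0.31 for Egr2 and -0.80 to 0.089 for Egr3. LN minus spleen ranged from -0.60 to 0.067 for Nr4a3 in Wt without 1 library (0.36 without mouse 1), and in KI from -0.025 to 0.91 for Nr4a2 and -0.11 to 0.90 for Egr1. The KI interaction of Egr3 ranged from -0.0055 to 0.72. Removing immunoglobulin and haemoglobin genes gave 0.021 for Egr1 in Tg minus Wt and 0.052 for Egr2 in KI minus Tg, both in LN. Quantile normalisation gave 0.016 for Egr1 in Tg minus Wt and 0.027 for Hsp90aa1 in KI minus Wt, in LN. The cause was not tested.

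With 1 or 2 mice a group, 5 residual degrees of freedom and 2 in the paired fit, the SE of a KI difference from Wt ran from 0.25 for Nr4a3 and Egr2 to 0.59 for Nr4a2. Count tests on spleen reads were added after seeing the data and called 6 members in KI minus Wt with either tool, and 3 (edgeR) or 5 (DESeq2) in KI minus Tg, where over all genes DESeq2 called 1798 against 839 in limma. Nr4a2 rested on 47 to 85 reads in the 4 KI libraries and LN Wt mouse 1.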
